A study of Homo sapiens with 4 samples.

Results

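The enzymes and transporters that take up glucose, break it down to pyruvate and lactate, and divert it into glycogen were followed as a set of 42 named genes in OVSAYO cells, a human line from an ovarian clear cell carcinoma. A gene was counted as present on the array when the RefSeq accession of a probe mapped to its symbol, which held for 41 of the 42 (all but PDHB) among 17718 genes with a symbol on the array. They had 62 probes, and 37 of the 41 had a brightest probe well above background on all 4 arrays. Total RNA was measured on Agilent arrays of the whole human genome with 1 dye, 1 array for each of 4 conditions. In NS-si cells, a Silencer negative control siRNA had been transfected with lipofectamine, and in Sp1-si cells a pool of siRNAs against the transcription factor Sp1. Both were left in culture for 40 h according to the sample labels, although a legend of the study gives another time. NS-si → CoCl2 and Sp1-si → CoCl2 cells were then given 0.5 mM CoCl2, a salt that mimics hypoxia, for 4 h, and the remaining cells are labelled as unexposed controls. The study asked which responses to CoCl2 depend on Sp1.

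Every condition had 1 array, and the labels tell of neither repeated nor pooled cultures, so no ratio below has a replicate check, no test could be run, and 1 array a condition limits how precise any value is. RNA of whole cultures was measured, in which fewer cells expressing a gene and less of its RNA per cell cannot be told apart. Values are scaled signals, that is, background-corrected intensities brought to the same 75th percentile on each array, and they are comparable between arrays for 1 probe but not between probes. Changes are log2 ratios of scaled signals. A gene was said to rise or fall at a log2 ratio of at least 1 in size, judged on its brightest probe, and counts are over genes whose brightest probe was well above background on all 4 arrays unless said otherwise. The technical error is the SD of the log2 ratio between the 10 spots of probes spotted repeatedly. At the median it was 0.029 for bright probes and 0.071 for probes with signals near 130, in the CoCl2 comparison of NS-si cells. Spots well above background numbered from 33081 to 34542 an array. The targeted transcript was low in both silenced cultures: the 10-spot SP1 probe read 543 (NS-si), 39.9 (Sp1-si), 492 (NS-si → CoCl2) and 33.8 (Sp1-si → CoCl2). All 8 epithelial and clear cell markers looked up were well above background on the 4 arrays. Of 7 leukocyte, endothelial and fibroblast markers with a probe, PTPRC, PECAM1 and COL3A1 were above it on no array, whereas CD3E, CD79A, VWF and DCN were above it on all 4.

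Glycolysis splits glucose into pyruvate with a small gain of ATP and no need for oxygen. Under hypoxia, hypoxia-inducible factors (HIFs) accumulate, bind a short core sequence in their target genes and switch on glucose transporters, glycolytic enzymes, lactate dehydrogenase A and the kinase PDK1, which holds back the conversion of pyruvate to acetyl-CoA. Cobalt ions stabilise HIFs in normal oxygen. Sp1 binds GC boxes, which are common in the promoters of housekeeping and glycolytic genes. Because both factors read DNA close to gene starts, the 250 bases before the most upstream RefSeq start (GRCh38.p14) were searched for the HIF core, written ACGTG or GCGTG, and for the GC box GGGCGG, on both strands, with CACGTG counted on each strand. Such a match is a description of letters and not a bound site. The HIF core was found in 24 of 39 members with an entry (61.5%), against 43.1% of the windows of 27305 genes. The GC box was found in 28 of the 39 (71.8%), against 42.2% of all windows. PFKFB2, SLC2A3 and SLC16A1 had no entry.

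The windows of 4 genes that rose with CoCl2, LDHA in Sp1-si cells alone, are shown first, with the HIF core in capitals. They are those of PFKFB4 (chr3:48556804-48557053, minus strand), HK2 (chr2:74833877-74834126, plus strand), PGK1 (chrX:78103998-78104247, plus strand) and LDHA (chr11:18394313-18394562, plus strand).
PFKFB4: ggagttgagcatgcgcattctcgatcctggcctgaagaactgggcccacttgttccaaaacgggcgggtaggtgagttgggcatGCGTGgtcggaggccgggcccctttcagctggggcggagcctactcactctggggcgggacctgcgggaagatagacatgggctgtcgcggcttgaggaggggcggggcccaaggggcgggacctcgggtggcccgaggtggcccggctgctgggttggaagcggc
HK2: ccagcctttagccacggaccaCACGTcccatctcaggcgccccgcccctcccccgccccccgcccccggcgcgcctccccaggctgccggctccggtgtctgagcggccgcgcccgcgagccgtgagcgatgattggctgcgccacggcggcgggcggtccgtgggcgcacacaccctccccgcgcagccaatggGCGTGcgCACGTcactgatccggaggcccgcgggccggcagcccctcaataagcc
PGK1: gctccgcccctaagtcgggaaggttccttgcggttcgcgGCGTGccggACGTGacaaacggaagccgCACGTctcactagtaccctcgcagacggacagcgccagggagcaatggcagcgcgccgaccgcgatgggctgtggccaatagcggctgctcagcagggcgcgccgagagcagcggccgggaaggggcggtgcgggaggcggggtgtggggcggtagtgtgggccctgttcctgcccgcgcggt
LDHA: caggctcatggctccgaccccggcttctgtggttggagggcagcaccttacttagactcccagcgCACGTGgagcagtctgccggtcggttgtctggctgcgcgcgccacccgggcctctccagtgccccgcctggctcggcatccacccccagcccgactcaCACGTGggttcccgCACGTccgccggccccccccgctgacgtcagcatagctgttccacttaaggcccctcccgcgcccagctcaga
No HIF core was found in the windows of SLC2A1 (chr1:42958869-42959118, minus strand), which rose in NS-si cells, or of PDK4 (chr7:95596517-95596766, minus strand), which fell in both kinds of cells. The windows of HK1, PFKP, PDK1 and PGM1, which rose in both kinds of cells, also had none and are not shown.
SLC2A1: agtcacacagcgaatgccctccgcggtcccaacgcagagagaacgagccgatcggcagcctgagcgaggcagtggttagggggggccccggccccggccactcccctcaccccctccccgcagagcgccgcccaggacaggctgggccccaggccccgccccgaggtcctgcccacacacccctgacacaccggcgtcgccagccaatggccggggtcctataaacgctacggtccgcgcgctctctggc
PDK4: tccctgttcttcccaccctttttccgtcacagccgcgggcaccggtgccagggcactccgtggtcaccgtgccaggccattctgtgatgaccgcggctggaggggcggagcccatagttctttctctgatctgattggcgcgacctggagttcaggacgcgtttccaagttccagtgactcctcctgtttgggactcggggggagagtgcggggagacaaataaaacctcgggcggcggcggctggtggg
SLC16A3 (chr17:82228185-82228434, plus strand) and PCK2 (chr14:24094061-24094310, plus strand) are shown because they had the lowest Sp1-si to NS-si ratios among members well above background on all arrays, with the GC box in capitals.
SLC16A3: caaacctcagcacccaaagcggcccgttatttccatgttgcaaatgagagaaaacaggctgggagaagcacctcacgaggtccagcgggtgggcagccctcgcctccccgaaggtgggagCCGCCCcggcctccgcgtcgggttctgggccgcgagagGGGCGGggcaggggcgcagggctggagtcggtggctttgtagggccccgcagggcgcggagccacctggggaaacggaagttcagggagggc
PCK2: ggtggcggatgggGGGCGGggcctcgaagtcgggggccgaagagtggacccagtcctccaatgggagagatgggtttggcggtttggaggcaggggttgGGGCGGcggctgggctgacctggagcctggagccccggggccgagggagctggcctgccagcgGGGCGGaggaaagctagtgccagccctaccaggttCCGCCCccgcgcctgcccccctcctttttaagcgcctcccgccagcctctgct
The match did not separate the genes by their response. Among the members with an entry that passed the background filter on the 4 arrays, the HIF core was found in 9 of 15 that rose in either kind of cells (60.0%) and in 11 of 20 that did not (55.0%). The GC box was found in 4 of 6 such members that were lower in Sp1-si cells (66.7%) and in 20 of 29 that were not (69.0%).

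CoCl2 raised genes of glucose uptake, hexose phosphorylation, phosphofructokinase and its regulators, phosphoglycerate kinase, lactate dehydrogenase, pyruvate dehydrogenase kinase and glycogen building in at least 1 kind of cells, whereas no aldolase, enolase or pyruvate kinase gene rose on its brightest probe with the scaling used. In NS-si cells 10 of 37 members rose, where 3.75% of 14280 genes did, and 1 fell, where 3.12% did. In Sp1-si cells 13 of 37 rose, where 3.4% did, and 1 fell, where 3.59% did. A count that also takes genes well above background on the higher array alone added GAPDHS for NS-si and SLC2A3 for Sp1-si cells, for 11 of 38 (4.73% of 15124 genes) and 14 of 38 (3.87% of 15085). Each entered through its high array, and their bounds of 1.77-fold and 1.96-fold do not reach the threshold, which is 2-fold. Those that rose in both were HK1, HK2, PFKP, PFKFB3, PFKFB4, PGK1, PDK1 and PGM1, which are 8 of the 10 and 8 of the 13. Of all genes, 309 rose in both (2.16%), among 535 that rose in NS-si cells and 485 that rose in Sp1-si cells. PDK4 was the member that fell in both. Over the 37 members well above background on all arrays, log2 CoCl2 ratios had a median of 0.55 for NS-si and of 0.68 for Sp1-si cells, against 0.00 for all 14280 such genes in each kind of cells. The CoCl2 ratios of 25 of the 37 were above 0 in both, which held for 36.3% of all genes. Some calls lay at the threshold: under 1 or more of the other scalings, HK1, PFKP, PGK1 and PGM1 in NS-si cells and PGAM1 and LDHC in Sp1-si cells missed it. Under some of them PKLR also fell past it in NS-si cells, and with median scaling GPI rose past it in Sp1-si cells (1.08). Without scaling the wider count was 7 for NS-si and 19 for Sp1-si cells, among the latter ALDOC (1.11) and PKM (1.08).

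**Figure D1:**
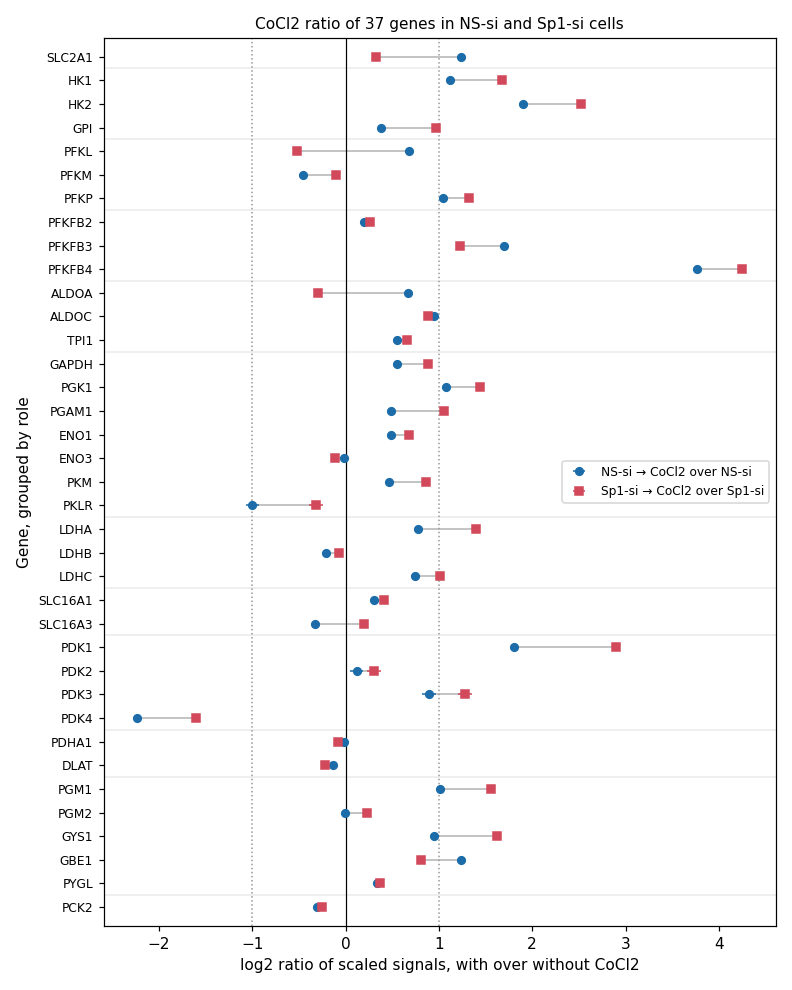
Log2 CoCl2 ratio (x axis) of the 37 members well above background on the 4 arrays, ordered by role (y axis), in NS-si cells (circles) and Sp1-si cells (squares), with bars for the SD between spots, most of them smaller than the symbols, and dotted lines at -1 and 1. PFKFB4 lies farthest to the right at 3.77 and 4.25, PDK4 farthest to the left, and most squares lie to the right of their circles.

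Glucose enters these cells through facilitative transporters. SLC2A1, the widely expressed transporter GLUT1, read 38822 (NS-si), 69524 (Sp1-si), 91650 (NS-si → CoCl2) and 87164 (Sp1-si → CoCl2). NS-si cells without CoCl2 were thus the low condition and the other 3 lay closer together, and SLC2A1 rose by a log2 ratio of 1.24 (SD 0.029) in NS-si cells, while its ratio was 0.33 in Sp1-si cells. SLC2A3, the high-affinity transporter GLUT3, was well above background in Sp1-si → CoCl2 cells alone, where it read 13.4 against 1.89, 1.71 and 2.40 in NS-si, Sp1-si and NS-si → CoCl2 cells. By the scanner's processed signals it was at least 1.96-fold higher than in Sp1-si cells and at least 1.69-fold higher than in NS-si → CoCl2 cells, bounds that take the dimmest reliable signal of the array for the side below background. With a normexp background correction its ratio to Sp1-si cells was 0.17, so the value rests on the correction used, and its dimmer probe was above background on no array.

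Hexokinases trap glucose in the cell as glucose 6-phosphate, and HK2 is the isoenzyme most often induced in tumours. HK2 read 9189 (NS-si), 4461 (Sp1-si), 34397 (NS-si → CoCl2) and 25637 (Sp1-si → CoCl2), so that both cultures with CoCl2 lay above both without. It rose 3.74-fold without silencing (log2 1.90, SD 0.029) and 5.75-fold after it (log2 2.52, SD 0.026). A second, dimmer HK2 probe read 177 (NS-si), 71.1 (Sp1-si), 686 (NS-si → CoCl2) and 130 (Sp1-si → CoCl2). Its ratios were 1.95 and 0.87, so in Sp1-si cells it did not pass the threshold. On this probe, Sp1-si → CoCl2 cells also lay below NS-si cells without CoCl2. HK1, the constitutive isoenzyme, read 707 and 676 without CoCl2 and 1535 and 2158 with it, in NS-si and Sp1-si cells in turn. Its log2 ratios were 1.12 (SD 0.041) and 1.68 (SD 0.037). The other HK1 probe, with signals of at most 13.0 and below background in Sp1-si → CoCl2 cells, read at least 1.35-fold lower with than without CoCl2 in Sp1-si cells, and averaging both probes turned the HK1 ratio there to -0.08.

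Phosphofructokinase commits sugar to glycolysis, and of its 3 subunit genes PFKP rose. PFKP, the platelet-type subunit, read 11769 and 9261 without CoCl2 and 24273 and 23178 with it, in NS-si and Sp1-si cells in turn, a rise by log2 ratios of 1.04 (SD 0.029) and 1.32 (SD 0.026). The liver-type subunit PFKL read 5383 (NS-si), 3920 (Sp1-si), 8597 (NS-si → CoCl2) and 2731 (Sp1-si → CoCl2). Its ratios were of opposite sign, 0.68 for NS-si and -0.52 for Sp1-si cells. A dimmer PFKL probe read 305, 175, 371 and 307 in the same order and gave 0.28 and 0.81, without the opposite sign.

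The PFKFB enzymes make and remove fructose 2,6-bisphosphate, the strongest activator of phosphofructokinase. PFKFB4 had the highest CoCl2 ratios of the 37 members in both kinds of cells. It read 582 (NS-si), 347 (Sp1-si), 7929 (NS-si → CoCl2) and 6603 (Sp1-si → CoCl2), a 13.6-fold rise without silencing (log2 3.77, SD 0.030) and a 19-fold rise after it (log2 4.25, SD 0.031). PFKFB3, the isoform that acts almost only as the kinase, read 6487 and 7813 without CoCl2 and 21081 and 18285 with it, in NS-si and Sp1-si cells in turn. Its log2 ratios were 1.70 (SD 0.029) and 1.23 (SD 0.026), and its 4 probes ranged from 1.38 to 2.21 for NS-si and from 1.17 to 1.49 for Sp1-si cells, so that each of them passed the threshold in both. PFKFB2, known from heart, read 832, 628, 953 and 755 in NS-si, Sp1-si, NS-si → CoCl2 and Sp1-si → CoCl2 cells on its brighter probe, with ratios of 0.20 and 0.27. The other PFKFB2 probe read 243, 275, 537 and 487 and gave 1.15 and 0.83, the widest gap in the NS-si comparison among the 12 members with several probes well above background on all arrays.

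**Figure D2:**
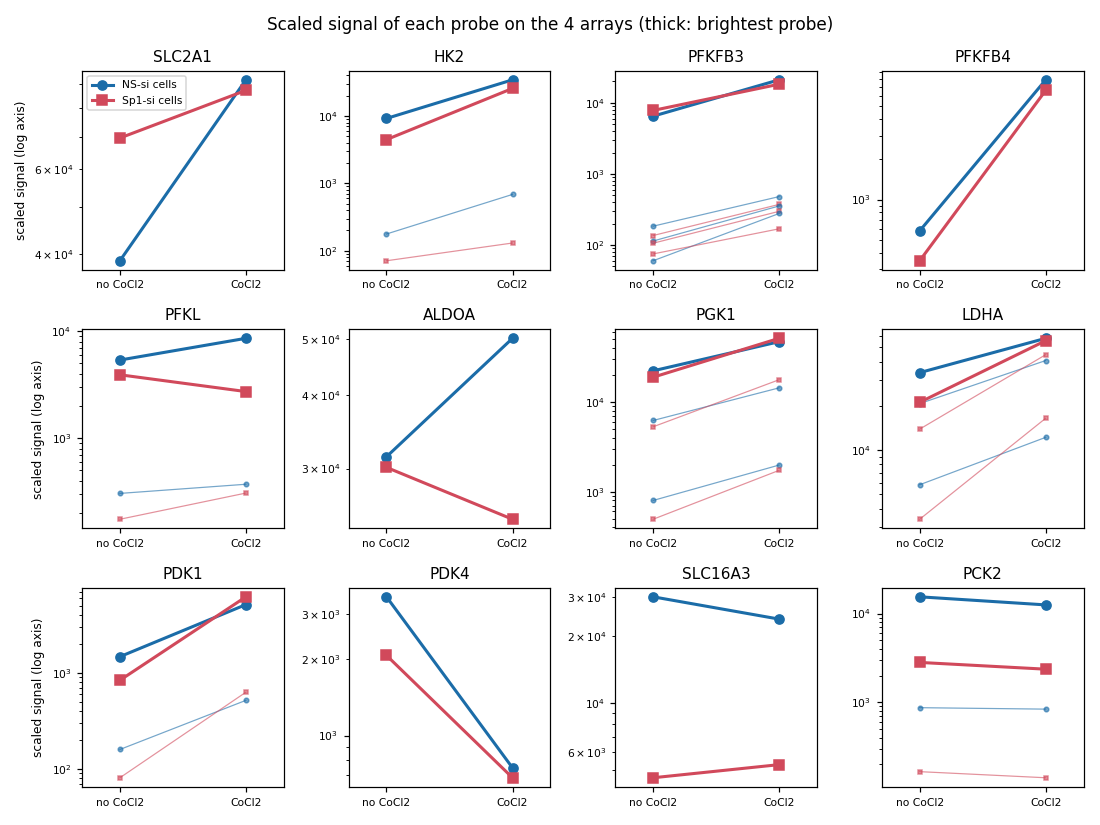
Scaled signal (y axis, logarithmic, with its own range in each panel) without and with CoCl2 (x axis) for 12 members, in NS-si cells (circles) and Sp1-si cells (squares); thick lines are the brightest probe and thin lines the other probes well above background on the 4 arrays, with 1 array a point. HK2, PFKFB3, PFKFB4, PGK1, LDHA and PDK1 climb in both kinds of cells, PDK4 drops in both, and SLC16A3 and PCK2 lie lower in Sp1-si cells with and without CoCl2.

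Aldolase and triose phosphate isomerase turn the doubly phosphorylated sugar into glyceraldehyde phosphate, and no member of this step passed the threshold with CoCl2. ALDOA, the main aldolase of most tissues, read 31426 (NS-si), 30138 (Sp1-si), 50085 (NS-si → CoCl2) and 24574 (Sp1-si → CoCl2). The cultures without CoCl2 were close, NS-si → CoCl2 cells lay above them and Sp1-si → CoCl2 cells below, with ratios of 0.67 (SD 0.029) and -0.29 (SD 0.026). TPI1 read 27148 and 28047 without CoCl2 and 39766 and 44180 with it, and its ratios were 0.55 and 0.66 on this brighter probe but 1.38 and 0.98 on the other, which read 4621, 5407, 12039 and 10630 in NS-si, Sp1-si, NS-si → CoCl2 and Sp1-si → CoCl2 cells.

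Lower glycolysis, in which ATP is made, contained the 10-spot probes of PGK1 and GAPDH and so the members with an error of their own. PGK1, phosphoglycerate kinase, read 22309 (NS-si), 18932 (Sp1-si), 47186 (NS-si → CoCl2) and 51471 (Sp1-si → CoCl2). It rose by 1.08 (SD 0.016, 10 spots) and 1.44 (SD 0.022, 10 spots), and its 3 probes all passed the threshold in both kinds of cells. GAPDH, often used as a reference gene, read 56388, 47246, 82316 and 87334 in the same order. Its ratios of 0.55 (SD 0.013, 10 spots) and 0.89 (SD 0.020, 10 spots) exceeded the spread between spots but not the threshold. PGAM1, phosphoglycerate mutase, read 9449 and 8446 without CoCl2 and 13237 and 17532 with it, in NS-si and Sp1-si cells in turn, and its ratios of 0.49 and 1.05 lay on either side of the threshold. GAPDHS, the sperm isoenzyme, was above background in NS-si → CoCl2 cells alone, where it read 12.8 against 1.59 (NS-si), 1.46 (Sp1-si) and 1.94 (Sp1-si → CoCl2), at least 1.77-fold higher than in NS-si cells, but its log2 ratio was 0.40 with a normexp correction.

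The pyruvate kinases close the pathway. PKM, the form of most tissues and tumours, read 11037, 7990, 15251 and 14463 in NS-si, Sp1-si, NS-si → CoCl2 and Sp1-si → CoCl2 cells, with CoCl2 ratios of 0.47 and 0.86. Its second probe read 6480, 4365, 8650 and 8925 and gave 0.42 and 1.03. The liver and red cell form PKLR read 194, 95.1, 97.3 and 76.6 in the same order, highest in NS-si cells, and its CoCl2 ratio in NS-si cells of -0.9999 (SD 0.071) fell just short of the threshold. It passed the threshold with quantile normalization (-1.01), in the authors' value table (-1.08) and without scaling (-1.23). ENO2, the neuronal enolase, read 3.17, 1.43, 4.42 and 1.84 and was above background on no array, so it has no ratio.

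Lactate dehydrogenase A turns pyruvate into lactate and so renews the cofactor that glycolysis needs. LDHA read 33614 (NS-si), 21122 (Sp1-si), 57544 (NS-si → CoCl2) and 55468 (Sp1-si → CoCl2), with log2 ratios of 0.78 (SD 0.029) and 1.39 (SD 0.026). The dimmer probes gave 0.97 and 1.07 in NS-si cells, and 1.68 and 2.28 in Sp1-si cells, so that all 3 passed the threshold in Sp1-si cells and 1 of the 3 in NS-si cells. LDHC, the testis isoenzyme, read 812, 668, 1357 and 1343 in the same order of cultures, with ratios of 0.74 and 1.01. Lactate leaves the cell through monocarboxylate transporters, and neither SLC16A1 (MCT1) nor SLC16A3 (MCT4), the exporter of glycolytic cells, rose with CoCl2. SLC16A3 read 29988 (NS-si), 4608 (Sp1-si), 23810 (NS-si → CoCl2) and 5278 (Sp1-si → CoCl2), and its CoCl2 ratios were -0.33 and 0.20.

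The pyruvate dehydrogenase kinases, of which 4 were measured, inactivate the enzyme that feeds pyruvate into the citric acid cycle. PDK1 rose and PDK4 fell in both kinds of cells, PDK3 rose in Sp1-si cells, and PDK2 had ratios of 0.12 and 0.30. PDK1 read 1478 (NS-si), 838 (Sp1-si), 5170 (NS-si → CoCl2) and 6233 (Sp1-si → CoCl2), and rose 3.5-fold without silencing (log2 1.81, SD 0.030) and 7.44-fold after it (log2 2.90, SD 0.031). Its other probe gave 1.70 and 2.97. PDK4, the isoform tied to fasting and fat oxidation, read 3516 (NS-si), 2068 (Sp1-si), 746 (NS-si → CoCl2) and 682 (Sp1-si → CoCl2). Both cultures with CoCl2 were thus low, and the log2 ratios were -2.24 (SD 0.030) for NS-si and -1.60 (SD 0.031) for Sp1-si cells. A dimmer PDK4 probe gave -2.41 in NS-si cells and was at least 4.16-fold lower with CoCl2 in Sp1-si cells, where it was not above background. PDK3 read 119 and 164 without CoCl2 and 221 and 399 with it, in NS-si and Sp1-si cells in turn, and its ratios were 0.89 (SD 0.071) and 1.28 (SD 0.075). Of the enzyme that these kinases act on, PDHA1 and DLAT had ratios between -0.22 and -0.01 on their brightest probes. The dimmer DLAT probes gave 0.19 and -0.15 in NS-si cells, and -0.08 and 0.01 in Sp1-si cells.

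Of the 5 members of glycogen metabolism and its phosphoglucomutase step, PGM1 rose in both kinds of cells, GBE1 in NS-si cells and GYS1 in Sp1-si cells. PGM1, the main phosphoglucomutase, read 2685 and 2636 without CoCl2 and 5432 and 7777 with it, in NS-si and Sp1-si cells in turn, a rise by 1.02 (SD 0.030) and 1.56 (SD 0.031). GYS1, glycogen synthase of muscle and most tissues, read 1087, 729, 2098 and 2238 in NS-si, Sp1-si, NS-si → CoCl2 and Sp1-si → CoCl2 cells, with ratios of 0.95 and 1.62. GBE1, the branching enzyme, read 5697, 7402, 13442 and 12931 in the same order, with the larger ratio in NS-si cells, 1.24 against 0.80. PGM2, the other phosphoglucomutase, had ratios of -0.01 and 0.23, and PYGL, which breaks glycogen down, had ratios of 0.33 and 0.37. Of the genes of glucose synthesis, FBP1 was above background on no array, and PCK2, the mitochondrial carboxykinase, read 15417, 2811, 12501 and 2359, with CoCl2 ratios of -0.30 and -0.25.

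In 13 members well above background on all arrays, no ratio reached 1 in size in any comparison with the scaling used. They were ALDOC, DLAT, ENO1, ENO3, GAPDH, GPI, LDHB, PDHA1, PDK2, PFKM, PGM2, PYGL and SLC16A1. Their CoCl2 ratios ran from -0.46 (PFKM) to 0.94 (ALDOC) in NS-si cells and from -0.22 (DLAT) to 0.97 (GPI) in Sp1-si cells. PFKM is the muscle-type phosphofructokinase subunit, ALDOC the brain-type aldolase and GPI the isomerase after hexokinase. Between the siRNAs their log2 ratios, Sp1-si over NS-si, ran from -0.97 (GPI) to 0.62 (SLC16A1) without and from -0.55 (PFKM) to 0.72 (SLC16A1) with CoCl2. The CoCl2 ratio of GPI in Sp1-si cells passed 1 with median scaling (1.08) and without scaling (1.19). Without scaling, those of ALDOC (1.11) and GAPDH (1.11) in Sp1-si cells did so too. Between the siRNAs, GPI without CoCl2 (-1.03) and SLC16A1 with CoCl2 (1.12) also passed 1 in size without scaling.

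Whether the response to CoCl2 depended on Sp1 was read as the difference of the log2 CoCl2 ratios, Sp1-si minus NS-si. The same number is the Sp1-si to NS-si ratio with CoCl2 minus that without, so these comparisons share arrays and are not independent. On their brightest probes, most members had the larger CoCl2 ratio in Sp1-si cells. The difference was above 0 for 28 of 37 members, against 51.8% of all genes, and its median was 0.27 over the members and 0.02 over all genes. When a gene's probes were averaged, the members' median was 0.14 and that of all genes 0.00. Its sign changed under another scaling for 5 of the 37. Without any scaling between the arrays the difference of all genes moved to a median of 0.47. Scalings that shift a whole array by 1 constant cannot change the gap between the members' median and that of all genes. It was 0.25 with median scaling, without scaling and in the authors' value table. With quantile normalization the gap was 0.24, with the normexp correction 0.27 and with averaged probes 0.14. PDK1 was the single member with a difference of at least 1 (1.09, SD 0.043, other probe 1.26), which 0.994% of all genes reached. PFKL was the single member at or below -1 (-1.20, SD 0.043), which 2.86% reached, but its other probe gave 0.53. ALDOA (-0.97, SD 0.032) and SLC2A1 (-0.91, SD 0.032) followed, each with 1 probe.

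**Figure D3:**
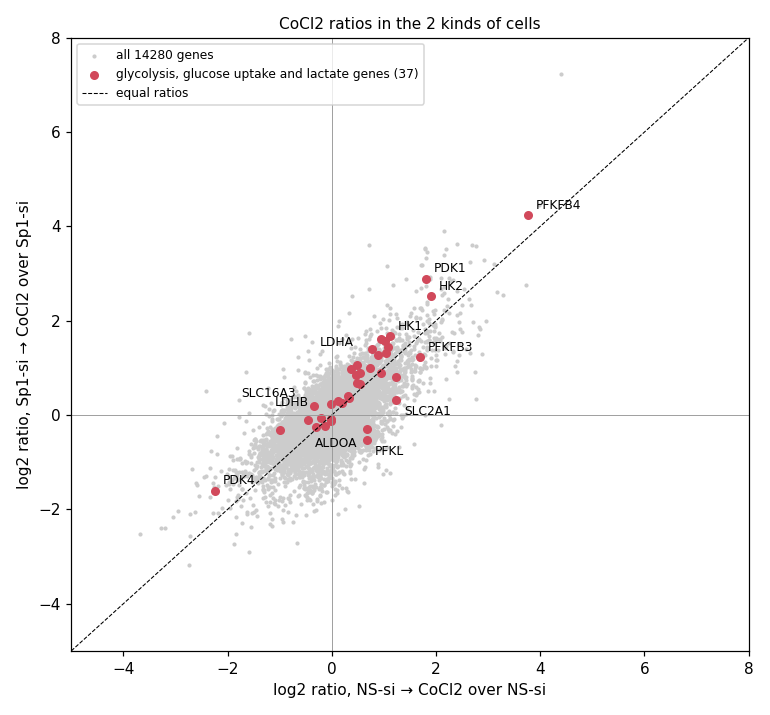
Log2 CoCl2 ratio in NS-si cells (x axis) against that in Sp1-si cells (y axis) for all 14280 genes well above background on the 4 arrays (grey) and the 37 members (red), with the line of equal ratios dashed; each point is 1 gene. Of the 37 members, 28 lie above the dashed line, and SLC2A1, PFKL and ALDOA lie farthest below it.

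Because a gene's probes can differ, the difference was compared between probes of the 12 members with several probes well above background throughout. The range between the probes had a median of 0.41 over these members and 0.31 over 4976 genes. The probes lay on both sides of 0 for 7 of the 12 (DLAT, HK2, PCK2, PFKFB2, PFKFB3, PFKL and TPI1), so for these the sign depended on the probe. How many of the 4976 genes do the same was not counted, so this is not shown to be particular to the members. The range was 1.73 for PFKL and 1.70 for HK2, with 0.62 and -1.08 for the HK2 probes, and 1.11 for PFKFB3, with values from -1.04 to 0.07. In the other 5, all probes of PGK1 (0.36 to 0.53), LDHA (0.62 to 1.21), PDK1 (1.09 to 1.26), PKM (0.39 to 0.62) and ENO1 (0.06 to 0.20) gave a positive difference. The technical SD of the difference between spots was 0.032 for bright probes and 0.108 for probes with signals near 130, where several of the dimmer probes lie. The gaps of PFKL, HK2 and PFKFB3 were far larger than either, whereas that of PDK1 was 0.17.

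**Figure D4:**
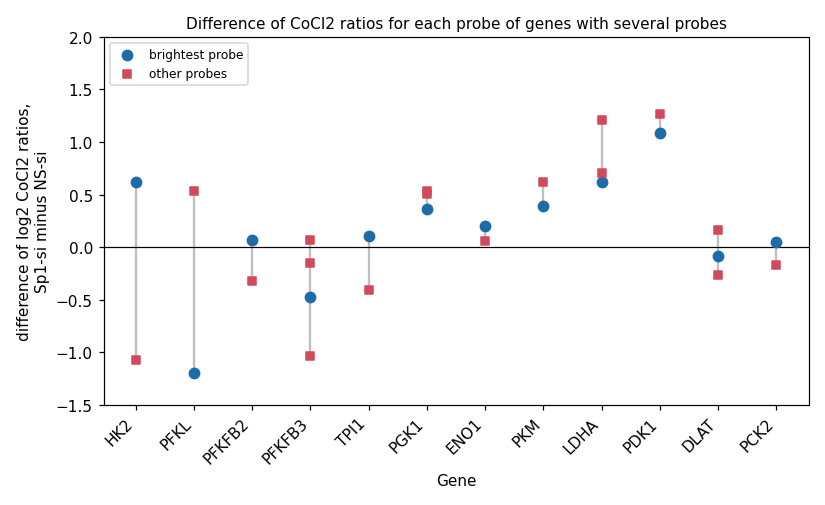
Difference of the log2 CoCl2 ratios, Sp1-si minus NS-si (y axis), for each probe well above background on the 4 arrays of the 12 members with several such probes (x axis), with the brightest probe as a circle and the others as squares. The probes of PGK1, LDHA, PDK1, PKM and ENO1 all lie above 0, whereas those of the other 7 members lie on both sides, farthest apart for PFKL and HK2.

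Between Sp1-si and NS-si cells, 6 of the 37 members passed the threshold with or without CoCl2, each lower in Sp1-si cells. The share of all genes passing in either comparison was not counted, and the shares below are for each comparison alone. Without CoCl2, HK2, PKLR, SLC16A3 and PCK2 were lower after Sp1 silencing, 4 of 37 members, where 5.66% of genes were, and 0 were higher, where 5.83% were. With CoCl2, PFKL, ALDOA, SLC16A3 and PCK2 were lower, 4 of 37, where 7.65% were, and 0 were higher, where 7.04% were. Genes above background on the higher array alone added GAPDHS as lower, for 5 of 39 (9.02% of 15069 genes), and SLC2A3 as higher (7.56%), both with bounds under 2-fold. The counts of members with a ratio below 0 were 30 of 37 without and 27 of 37 with CoCl2, against 51% of all genes in each case. The medians were -0.28 without and -0.08 with CoCl2, against -0.01 for all genes in both. The members' median with CoCl2 turned to 0.03 with median scaling and to 0.32 without scaling. With CoCl2 the sign of 20 of the 37 members changed under another scaling, each with a ratio of at most 0.38 in size.

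SLC16A3 and PCK2 were the members lower in both comparisons. The share of all genes lower in both was not counted. For SLC16A3, whose signals are given above, the log2 ratio was -2.70 (SD 0.023) without and -2.17 (SD 0.023) with CoCl2, a 6.51-fold and a 4.51-fold lower signal in Sp1-si cells. PCK2 had ratios of -2.46 (SD 0.023) and -2.41 (SD 0.023), and its second probe, which read 869 (NS-si), 165 (Sp1-si), 837 (NS-si → CoCl2) and 141 (Sp1-si → CoCl2), gave -2.39 and -2.57. Both transcripts were thus low in both Sp1-si cultures, and neither passed the threshold with CoCl2. The epithelial markers CDH1 (-1.55 and -1.73) and NAPSA (-2.33 and -2.39) were also lower in both Sp1-si cultures, and their part in these results was not tested.

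HK2 was lower without CoCl2 after Sp1 silencing (-1.04, SD 0.023), where its second probe read 177 and 71.1 (-1.32). With CoCl2 its ratio was -0.42 on the brighter and -2.40 on the dimmer probe, which read 686 and 130. PKLR, at -1.03 (SD 0.071) without CoCl2, lay at the threshold within its spread between spots, and at -0.71 with a normexp correction. Its other probe, above background in Sp1-si cells alone, gave 0.31, and the mean of both was -0.36. PFKL (-1.65, SD 0.033) and ALDOA (-1.03, SD 0.023) were lower with CoCl2, but the dimmer PFKL probe gave -0.27 and ALDOA missed the threshold under quantile or median scaling (-0.96 and -0.92), in the authors' value table (-0.97) and without scaling (-0.63). GAPDHS was at least 1.44-fold lower in Sp1-si → CoCl2 than in NS-si → CoCl2 cells, but with a normexp correction its log2 ratio was -0.56 and that of SLC2A3 0.01. SLC2A1 stood on the other side without CoCl2, at 0.84 (SD 0.023), and its ratio with CoCl2 was -0.07. LDHA and PDK1 had ratios of -0.67 and -0.82 without CoCl2 and of -0.05 and 0.27 with it.

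**Figure D5:**
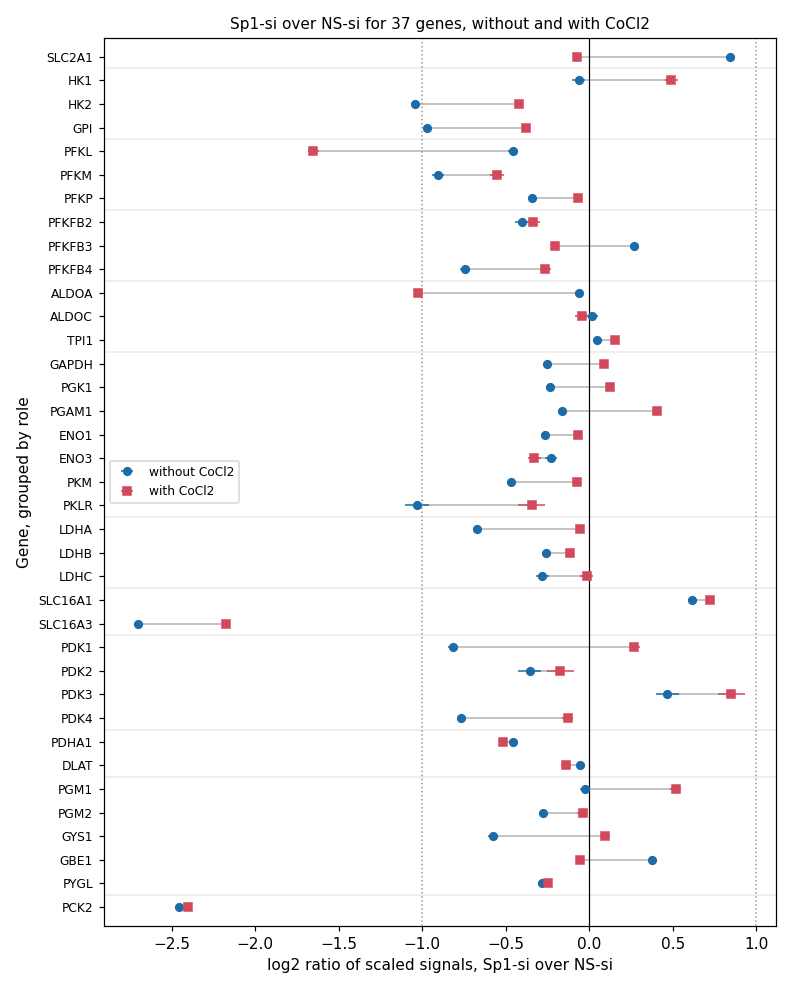
Log2 ratio of Sp1-si to NS-si cells (x axis) for the 37 members ordered by role (y axis), without CoCl2 (circles) and with CoCl2 (squares), with bars for the SD between spots and dotted lines at -1 and 1. SLC16A3 and PCK2 lie beyond -2 in both comparisons, and PFKL and ALDOA pass -1 with CoCl2 but not without.

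The genes of neighbouring pathways had CoCl2 ratios centred near 0. Of 88 further genes of glucose transport, glycolysis isoenzymes, pyruvate and glycogen handling, gluconeogenesis, the pentose phosphate pathway and the citric acid cycle, 85 had a probe and 72 were well above background on the 4 arrays. Their median log2 CoCl2 ratio was -0.01 for NS-si and 0.01 for Sp1-si cells. In NS-si cells, LDHAL6A (at least 1.27-fold) and PFKFB1 (at least 1.86-fold) were above background with CoCl2 alone, with bounds under the threshold. Of the 72 genes, 0 rose there, where 3.75% of all genes did, and 1 fell, where 3.12% did. The transporter SLC2A11 fell (-1.36). In Sp1-si cells, PPP1R3B, which targets a phosphatase to glycogen, rose (1.52), 1 of 72, where 3.4% of all genes did. SLC2A5, not above background on every array, had a ratio of 1.27. SLC2A11 (-1.40), PPP1R3D (-1.24), H6PD of the pentose pathway (-1.30) and PDP1 (-2.71) fell, 4 of 72, where 3.59% did. LDHAL6A, PFKFB1 and SLC2A5 were named after their values were seen. PDP1, the phosphatase that reverses the action of the PDK kinases, read 760 (NS-si), 2248 (Sp1-si), 477 (NS-si → CoCl2) and 343 (Sp1-si → CoCl2), so that Sp1-si cells without CoCl2 were high and those with CoCl2 low. PPP1R3B had the larger CoCl2 ratio in Sp1-si cells, with 0.99 in NS-si cells, as did GYS1 and PGM1 but not GBE1. Over the 16 genes of other glycogen metabolism that were well above background on the 4 arrays, the median difference was 0.10.

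Between the siRNAs, 4 of these 72 genes were higher and 6 lower in Sp1-si cells without CoCl2, where 5.83% and 5.66% of all genes were. With CoCl2, 2 were higher and 3 lower, where 7.04% and 7.65% of all genes were. The transporter SLC2A8 was higher in both (2.16 and 2.18). BPGM, which makes the bisphosphoglycerate that loosens the grip of haemoglobin on oxygen, was lower in both (-1.66 and -1.22), as was the monocarboxylate transporter SLC16A4 (-1.37 and -1.58). Without CoCl2, PDP1 (1.56), PDPR, a regulator of that phosphatase (1.41), and PHKA2 of phosphorylase kinase (1.03) were higher. PPP1R3B (-1.33), the D-lactate dehydrogenase LDHD (-1.18) and SUCLG2 of the citric acid cycle (-1.13) were lower there. With CoCl2, IDH3A of the citric acid cycle was higher (1.25) and SLC2A13, a myo-inositol carrier, lower (-1.17). SLC2A4, GYS2 and LDHAL6A also had ratios past 1 in size but were not above background on all arrays, and they too were named after their values were seen.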

How the data were processed

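RNA of each of the 4 conditions was labelled with Cy3 and hybridised to 1 array of a 4x44K design by a contract service. The intensities deposited by the authors are processed signals of the scanner software (Agilent Feature Extraction 10.5.1.1 per the file headers), with background subtracted and spatial trends removed within each array but no normalization between arrays. The authors' deposited value table equals these intensities times 1 constant per array. The text of the study names no normalization.

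Here, log2 processed signals of non-control spots, without spots flagged as outliers, were set relative to the 75th percentile of the array and averaged over the spots of a probe. Printed scaled signals carry the mean 75th percentile of the 4 arrays. The 75th percentile was 1142, 1100, 977 and 1285 on the NS-si, Sp1-si, NS-si → CoCl2 and Sp1-si → CoCl2 arrays. A probe was well above background when at least 50% of the spots kept passed, and a ratio with 1 dim side is a bound. Symbols came from RefSeq accessions, which matched 28458 of 29877 spots with one and named 26217 of 41000 probes, and the probe with the highest mean signal stood for a gene. Probes were annotated on an earlier build than that of the promoters, so they have no coordinates here. For probes with 1 spot, the error is the median spot-by-spot SD of 10-spot probes of like signal in 5 bins, and it does not cover differences between cultures. No spot was saturated.

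Members and lists were chosen with earlier results of these data known. Values on all arrays are given for members with a ratio of at least 1 in size, or a difference of at least 0.7, on a probe well above background. Genes of the other lists are named at a ratio of at least 1 in size. A result that this rule would name is not reported here. The count of genes that pass the background filter on every array comes first in the text, since a gene that passes on 1 side has only a bound, and the wider count is given beside it. Alternatives were other scalings, the authors' value table, a normexp correction (offset 50) of median signals, since no mean signals were given, and outlier spots kept. Others were the mean over a gene's probes, other background filters and a threshold of 0.6. Leaving saturated spots out was also listed but could change nothing, since no spot was saturated. Planted changes in simulated data were used to test the counting. Python 3.11.15, numpy 2.4.6, pandas 2.3.3, matplotlib 3.10.9, R 4.3.3 and limma 3.58.1 were used.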

Additional observations from a re-analysis of the deposited data

Results flagged for a closer look

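The CoCl2 ratios of 3 members had opposite signs in NS-si and Sp1-si cells, each by more than 2 times the SD between spots. With 1 array per condition none of these differences was tested. The share of all genes that meet this rule was not counted, so whether 3 members are many is not known. The difference, Sp1-si minus NS-si on the log2 scale, was -1.20 for PFKL, whose dimmer probe gave 0.53. It was -0.97 for ALDOA and 0.53 for SLC16A3, each with 1 probe.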

How the results depend on the processing

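The counts here include genes above background on the higher array alone. Those of members that rose in Sp1-si cells, or were lower in Sp1-si cells with CoCl2, stayed within 1.5 times their values under every alternative. The count that rose in NS-si cells was 7 without scaling and 18 at a threshold of 0.6, and the count lower in Sp1-si cells without CoCl2 was 10 at that threshold. The median difference of the CoCl2 ratios was 0.30 with quantile normalization, 0.36 with median scaling, 0.72 without scaling, 0.23 with the normexp correction and 0.14 when a gene's probes were averaged. Without scaling, the medians of all genes moved to -0.22 and 0.22 for CoCl2 without and with silencing, to 0.38 for Sp1-si against NS-si with CoCl2 and to 0.47 for the difference. The HK1 ratio in Sp1-si cells turned to -0.0784 with the mean over its probes, where the dim probe enters.

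Of the calls in NS-si cells, 91.7% were rises, against 80% with quantile normalization and 77.8% without scaling. Of the members past the threshold between Sp1-si and NS-si cells with CoCl2, 16.7% were higher, and 42.9% without scaling, where for all genes the share went from 45.6% to 78.4%. Without scaling, the share of rises among all genes was 32.4% for NS-si and 68.0% for Sp1-si cells, and 54.7% and 45.1% with the 75th percentile. Median scaling gave 55.7% in Sp1-si and, with CoCl2, 55.9% higher in Sp1-si cells.

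Another scaling changed the sign of 3, 5, 4 and 5 of 37 members for CoCl2 in NS-si, CoCl2 in Sp1-si, Sp1-si against NS-si without CoCl2 and the difference of CoCl2 ratios. The differences ranged from -1.20 to -0.33 for PFKL, from -1.001 to -0.52 for ALDOA, from -0.92 to -0.46 for SLC2A1 and from 1.05 to 1.54 for PDK1. No paired analysis was possible because each condition has 1 array, and for the same reason no array could be left out. Ratios of SLC2A3 and GAPDHS rest on signals close to background, and ENO2 and FBP1 were above background on no array.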
